A study of Vitis vinifera with 219 samples.

Results

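Stilbene synthase joins p-coumaroyl-CoA with malonyl-CoA to make resveratrol, the parent of the stilbene phytoalexins of grapevine. It uses the same substrates as chalcone synthase, the entry to flavonoids and anthocyanins. In grapevine the enzyme is encoded by tandem gene arrays on 2 chromosomes, and berry stilbenes are known to accumulate with ripening and after infection, wounding or ultraviolet light.

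The genes described here are the 39 gene IDs from VIT_16s0100g00750 to VIT_16s0100g01200 on chromosome 16 and the 10 IDs from VIT_10s0042g00840 to VIT_10s0042g00930 on chromosome 10, 49 of the 29971 IDs in the table. They were taken by ID range. The files give the IDs no names, so single members are called by ID and no role beyond that of the family is given to any of them. Copies in such arrays can be near-identical, though no member sequence was examined here. Reads may therefore be shared between members, and the value of any single member is less certain than that of its cluster. The libraries were also not strand-specific. Of the 49 members, 43 passed the filter of at least 1 RPKM (mapped reads scaled to gene length and to library size) in at least 3 libraries, 34 on chromosome 16 and 9 on chromosome 10. VIT_16s0100g00870, VIT_16s0100g00970 and VIT_16s0100g01080 were listed at 0 in every library. VIT_16s0100g01060, VIT_16s0100g01110 and VIT_10s0042g00910 were above 0 in 2, 215 and 131 libraries and were not tested.

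The study followed field-grown berries of Pinot noir and Cabernet Sauvignon through development in 2012, 2013 and 2014, with RNA-seq of pericarp, seeds removed, in 73 groups of 3 libraries. Pinot noir gave 10, 11 and 12 time points in the 3 seasons, with the first at day -36, -20 and -20 after labelled veraison (the onset of colour and softening) and the last at day 53, 50 and 52. Cabernet Sauvignon gave 13, 14 and 13 time points, with the first at day -37, -26 and -23 and the last at day 80, 63 and 63. All vines of both cultivars were labelled as unthinned, and each cultivar was 1 clone on its own rootstock and of its own vine age in the same area, so cultivar, clone, rootstock and vine age cannot be told apart. Each library held a pool of berries. Nothing in the labels ties replicate numbers to separate plots, so p-values measure the spread between the 3 libraries of a group, which may be partly technical. Each library was labelled with its own sugar value, and these differed within most groups. In whole pericarp, fewer cells of a type and less RNA per cell cannot be told apart.

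The windows compared were before onset (day -18 to -13), day 0, day 21 to 22, day 42 to 43 and the last sampling of a season, each with 3 libraries per season and 9 per cultivar. The stage was checked on 3 colour genes. UFGT (VIT_16s0039g02230), which glucosylates anthocyanidins, had a median of 19.6 RPKM at day 0 against 0 before onset in Pinot noir, and 19.3 against 0.0320 RPKM in Cabernet Sauvignon. GST4 (VIT_04s0079g00690) had medians of 209 against 0.0593 RPKM in Pinot noir and 270 RPKM against 0 in Cabernet Sauvignon, and MYBA1 (VIT_02s0033g00410) had 15.8 RPKM against 0 and 24.7 against 0.00387 RPKM. Sugar at labelled day 0 was 1.11 g per 100 ml in Pinot noir of 2014, against 8.47 in 2012 and 9.23 in 2013, and 2.26 g per 100 ml in Cabernet Sauvignon of 2014, against 6.83 and 7.84. Labelled day 0 of 2014 thus lay lower on the sugar scale in both cultivars.

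Some libraries stood apart. A set of 155 genes was at least 1 log2 unit lower in every Cabernet Sauvignon library of day 43 to 56 of 2013 than in those of day 22 to 36. Their mean level split all libraries into 131 with 3.61 to 4.12 and 88 with 0.973 to 1.46 on the log2(RPKM + 1) scale, with nothing between. The 88 low-level libraries were all 36 of Pinot noir 2014, all 39 of Cabernet Sauvignon 2014 and 13 of Cabernet Sauvignon 2013. In addition, 4 libraries carried the marker genes of the other cultivar: the 3 labelled Cabernet Sauvignon 2014 day -23, which enter no window, and replicate 2 of the group labelled Pinot noir 2014 day -14. Without these 4, the counts of members called stayed the same in each comparison over ripening and between cultivars.

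The chromosome 16 cluster had a low median in both cultivars before onset and at day 0, with high values in some libraries, and was far higher in Pinot noir from day 21 on. Its summed RPKM in the 9 Pinot noir libraries before onset was 0.697 at the lowest, 7.79 at the median and 67.0 at the highest, and at day 0 it was 4.74, 7.50 and 66.6. At day 21 the lowest, median and highest sums were 86.7, 457 and 846, at day 42 they were 221, 726 and 943, and at the last sampling 265, 677 and 1489. Every Pinot noir library of these 3 later windows lay above every one of the window before onset, though 1 library of day -36 of 2012, outside that window, had 98.0. Cabernet Sauvignon had 2.07, 5.42 and 80.3 before onset, 2.50, 3.71 and 11.2 at day 0, 5.29, 9.97 and 30.7 at day 21, 2.10, 9.53 and 20.6 at day 42, and 5.22, 20.1 and 67.8 at the last sampling. The mean sum was 628 ± 242 in Pinot noir and 11.5 ± 6.62 in Cabernet Sauvignon at day 42 (SD, n = 9 each), a ratio of 54.7, while before onset the means were 15.3 ± 21.4 and 23.2 ± 30.0.

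The chromosome 10 cluster moved less. Its summed RPKM in Pinot noir was 1.55 at the lowest, 9.92 at the median and 42.3 at the highest before onset, 2.24, 8.52 and 14.0 at day 0, and 7.07, 33.7 and 161 at day 21. At day 42 the values were 15.6, 31.1 and 111, and at the last sampling 4.19, 13.5 and 114. Every Pinot noir library of day 42 lay above every one of day 0, while all other pairs of Pinot noir windows overlapped. Cabernet Sauvignon had 0.355, 2.98 and 61.9 before onset, 0.514, 1.43 and 5.55 at day 0, and 0.724, 3.65 and 14.3 at day 42. The day 42 mean was 44.0 ± 28.9 in Pinot noir against 4.57 ± 4.23 in Cabernet Sauvignon (SD, n = 9 each), a ratio of 9.61, and these libraries did not overlap.

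**Figure D1:**
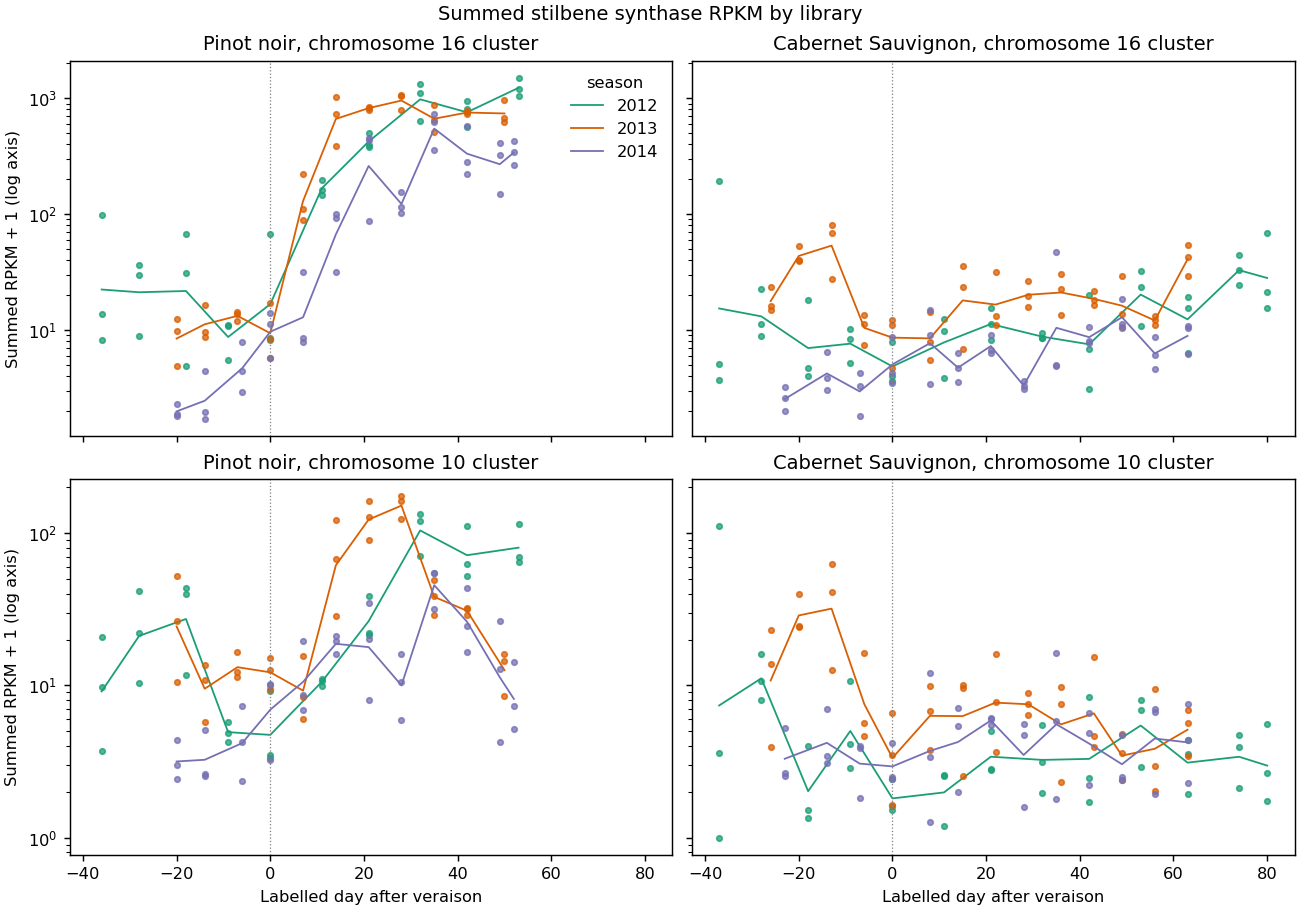
Summed RPKM + 1 of the chromosome 16 members (upper panels) and chromosome 10 members (lower panels) on a log axis, by labelled day after veraison, with Pinot noir on the left and Cabernet Sauvignon on the right. Points are single libraries and lines join the geometric means of the 3 libraries of a group, coloured by season; the chromosome 16 sums of Pinot noir from day 21 on lie between 86.7 and 1489, above the highest Cabernet Sauvignon library after day 0, 67.8.

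The rise differed between seasons on the labelled scale. In Pinot noir of 2012 the chromosome 16 sums of the 3 libraries were 7.17, 7.50 and 66.6 at day 0, 145, 198 and 159 at day 11, and 1313, 1107 and 641 at day 32. In 2013 they were 4.75, 7.41 and 16.1 at day 0, 222, 109 and 88.3 at day 7, and 1032, 728 and 386 at day 14. The 2014 libraries, all low-level, had 30.7, 7.51 and 6.95 at day 7, 31.0, 99.7 and 91.9 at day 14 and 86.7, 439 and 457 at day 21. A later rise in 2014 therefore cannot be told apart from the library set. Pinot noir berries of 2014 had 12.2 g sugar per 100 ml at day 14, and those of 2013 had 11.9 g at day 7. The 2014 course was also not smooth: the sums were 154, 102 and 114 at day 28 and 360.1, 622 and 728 at day 35.

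Cabernet Sauvignon showed no such rise in any season. After day 0 its 78 libraries had chromosome 16 sums of 2.07 at the lowest, 10.2 at the median and 67.8 at the highest, against 6.95, 480.5 and 1489 in 60 Pinot noir libraries after day 0. The highest values came at the end of the season. In 2012 the sums were 20.1, 14.3 and 67.8 at day 80, against 43.7, 31.7 and 23.3 at day 74, and in 2013 they were 41.3, 53.6 and 28.4 at day 63. In 2014 they were 5.22, 9.50 and 9.83 at day 63, and the highest library of that season, 46.5, was replicate 2 of day 35, with 3.96 and 3.86 in the other two libraries of that group.

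Both clusters had brief high values in green berries. In Cabernet Sauvignon of 2013 the chromosome 16 sums were 38.1, 39.0 and 52.0 at day -20 and 26.7, 67.1 and 80.3 at day -13, and the chromosome 10 sums were 23.7, 23.2 and 39.0 and then 11.6, 40.0 and 61.9. By day -6 the chromosome 16 sums were 10.3, 12.6 and 6.43. The library with 26.7 and 11.6 was the only one of that group among the 88 low-level libraries. In the first groups of 2012 the high green values rested on single libraries: replicate 2 of Cabernet Sauvignon 2012 day -37 had 193 on chromosome 16 and 111 on chromosome 10, with 2.68 and 4.09 on chromosome 16 in the others, and replicate 1 of Pinot noir 2012 day -36 had 98.0 on chromosome 16, with 7.27 and 12.7 in the others. In Pinot noir of 2012 the chromosome 16 sums were 28.7, 35.1 and 7.86 at day -28, with chromosome 10 sums of 21.0, 40.6 and 9.30. At day -18 they were 29.9, 67.0 and 3.89, with chromosome 10 sums of 38.8, 42.3 and 10.8.

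By single member, limma on log2(RPKM + 1) across the 21425 genes tested called a gene at an adjusted p under 0.05 and a difference of at least 1 log2 unit. From before onset to day 42 in Pinot noir, 37 of the 49 members were higher and none was lower, where 9.12% of all genes tested were higher and 22.7% were lower. These were 33 of 39 on chromosome 16 and 4 of 10 on chromosome 10. Over all 49 members the median log2 difference was 2.41, against -0.24 over all genes tested. Taken season by season in the same fit, 36, 37 and 36 members were higher in 2012, 2013 and 2014, where 9.82%, 9.52% and 9.82% of all genes were higher and 25.4%, 22.5% and 22.7% lower. Within the 131 higher-level libraries alone 36 members were higher, and within the 88 low-level libraries alone 36 were. With a pseudocount of 5 instead of 1 the count of members was 24, since members of low level then move less on the log scale.

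In Cabernet Sauvignon the same comparison called 0 of 49 members in either direction, where 7.71% of all genes were higher and 23.1% lower; 8 members had an unadjusted p under 0.05 in limma. The median over the 49 members was -0.10, against -0.22 over all genes tested. Without replicate 1 of each group 3 members were called lower. In 2013 alone 12 members were lower and none higher, where 25.6% of all genes were lower and 9.19% higher. All 3 libraries of day 43 of 2013 were low-level, against 1 of 3 before onset, so this comparison alone cannot tell the change from the library sets. In higher-level libraries of that season the chromosome 16 sums were 67.1 and 80.3 at day -13. They were 10.3, 12.6 and 6.43 at day -6 and 12.1, 9.97 and 30.7 at day 22. The calls of 2013 were not tested within 1 set. In 2012 and 2014 alone no member was called by limma, where 7.98% and 8.2% of genes were higher and 23.4% and 22.5% lower, and 0 members had an unadjusted p under 0.05.

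The change over ripening itself differed between the cultivars for 40 of 49 members, each higher in Pinot noir, where 6.29% of all genes tested were called with the higher difference in Pinot noir and 3.54% in Cabernet Sauvignon. These were 33 of 39 on chromosome 16 and 7 of 10 on chromosome 10. With the 3 season means as replicates, 0 genes of any kind were called in this comparison by limma, while 40 members and 6240 of all genes had an unadjusted p under 0.05.

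**Figure D2:**
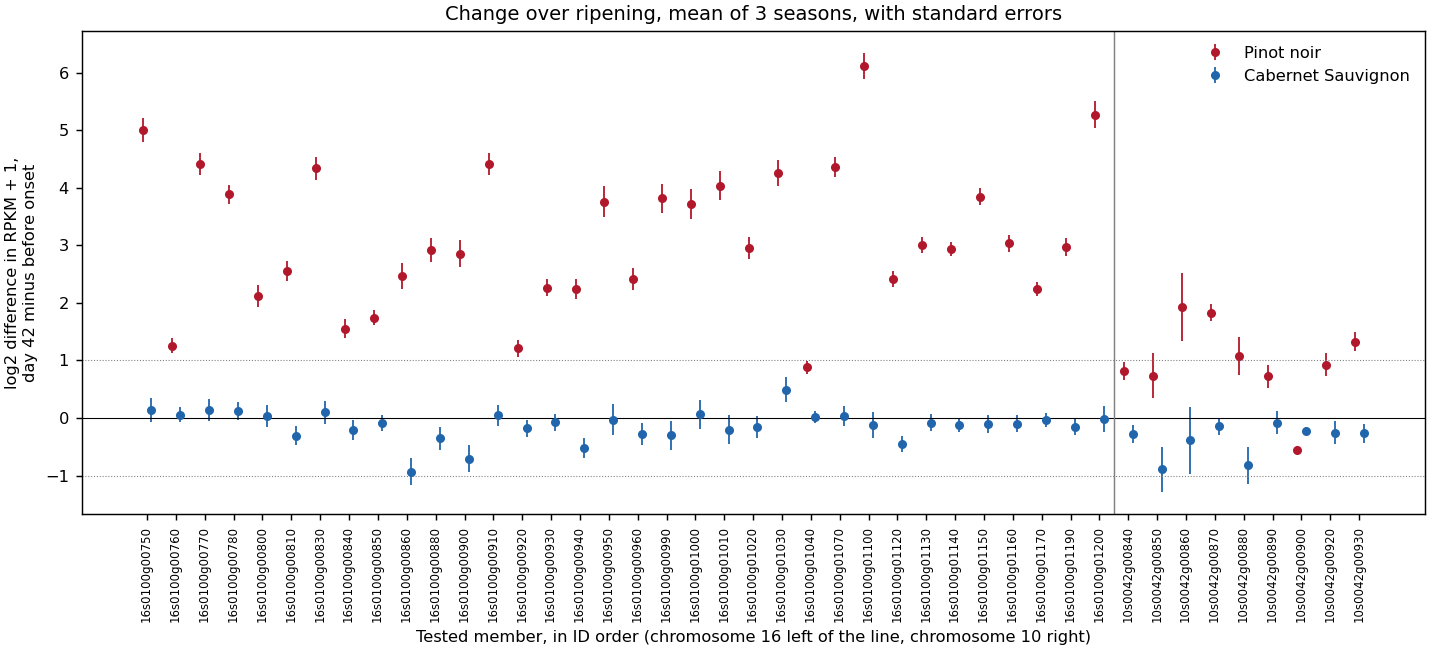
Difference in log2(RPKM + 1) between day 42 and before onset for the 43 tested members in ID order, mean of 3 seasons, with standard errors from limma; Pinot noir is drawn left of Cabernet Sauvignon for each member and dotted lines mark 1 log2 unit. Pinot noir differences reach 6.11 at VIT_16s0100g01100, while in Cabernet Sauvignon no member was called.

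Taken by steps, the largest count of called members in Pinot noir was between day 0 and day 21. From before onset to day 0, 0 members were higher and 1 was lower, where 3.93% and 9.62% of all genes were, and 3 members had an unadjusted p under 0.05 in limma. VIT_10s0042g00880 was the one that fell, by 1.07 log2 units. From day 0 to day 21, 39 members were higher and none lower, where 2.76% of genes were higher and 5.93% lower. From day 21 to day 42, 2 were higher and 3 lower, against 2.32% and 4.11% of genes. VIT_16s0100g01100 and VIT_16s0100g01140 were the members called higher, by 1.63 ± 0.23 and 1.00 ± 0.13 log2 units (SE), and VIT_16s0100g00800, VIT_16s0100g00840 and VIT_16s0100g00920 fell by 1.43, 1.16 and 1.07 log2 units. From day 42 to the last sampling no member was called by limma in Pinot noir, where 0.084% of genes were higher and 0.159% lower, and 8 members had an unadjusted p under 0.05.

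In Cabernet Sauvignon 2 members fell from before onset to day 0, where 9.32% of genes did and 3.5% were higher: VIT_16s0100g00860 by 1.11 and VIT_10s0042g00860 by 1.37 log2 units. From day 0 to day 21 VIT_10s0042g00860 alone was higher, by 1.30 ± 0.59 log2 units (SE), where 2.03% of genes were higher and 6.58% lower. From day 21 to day 42 no member was called by limma, where 0.719% of genes were higher and 3.26% lower, and 0 members had an unadjusted p under 0.05. From day 42 to the last sampling 2 members were higher, where 2.72% of genes were higher and 3.57% lower: VIT_16s0100g01030 by 1.198 ± 0.22 and VIT_16s0100g01200 by 1.03 ± 0.23 log2 units (SE). These small counts rested on the settings, as given at the end.

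Between cultivars at the same window, 0 of 49 members were called before onset in limma, where 2.59% of genes were higher and 2.72% lower in Pinot noir, and 9 members had an unadjusted p under 0.05. At day 21 and again at day 42, 39 members were higher in Pinot noir and none was lower, where 5.12% and 6.55% of genes were higher and 4.19% and 4.08% lower. At day 42, 36 of the 49 members had every Pinot noir library above every Cabernet Sauvignon library, where 11.7% of all genes tested did. At day 21 this held for 30 members, where 6.25% of genes did, and at the last sampling for 34, where 9.65% did. The last sampling came at day 53, 50 and 52 in Pinot noir and at day 80, 63 and 63 in Cabernet Sauvignon. In 2013 the Cabernet Sauvignon libraries of day 42 and of the last sampling were all low-level and those of Pinot noir were not. For that season cultivar and library set cannot be told apart in these 2 windows.

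VIT_16s0100g01100 had the highest mean of all members and the largest difference over ripening. In Pinot noir it had 30.3 RPKM at the lowest, 90.0 at the median and 127 at the highest at day 42, against 0.0313, 0.162 and 0.447 RPKM before onset, a difference of 6.11 ± 0.23 log2 units (SE; limma, adjusted p = 1.4e-57). Cabernet Sauvignon had 0, 0.279 and 0.621 RPKM at day 42, against 0.167, 0.324 and 0.836 before onset, a difference of -0.12 ± 0.23 (adjusted p = 0.63). The Pinot noir groups did not overlap and the Cabernet Sauvignon groups did. In Pinot noir of 2013 its libraries had 126, 127 and 125 RPKM at day 42, against 32.8, 31.6 and 21.8 RPKM at day 21.

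VIT_16s0100g01200, at the far end of the ID range, had 14.5, 90.0 and 107 RPKM at the lowest, median and highest at day 42 in Pinot noir, against 0.0279, 0.352 and 2.93 RPKM before onset. Its difference was 5.27 ± 0.23 log2 units in Pinot noir (SE; limma, adjusted p = 8.7e-50) and -0.02 ± 0.23 in Cabernet Sauvignon (adjusted p = 0.95). The highest Cabernet Sauvignon value at day 42 was 0.644 RPKM, below every Pinot noir library of that window. At the other end of the range, VIT_16s0100g00750 had 21.2, 44.6 and 57.1 RPKM at day 42 in Pinot noir, against 0.0607, 0.155 and 1.59 RPKM before onset, a difference of 5.00 ± 0.20 log2 units (SE; limma, adjusted p = 2.5e-53). Its Cabernet Sauvignon libraries at day 42 had at most 0.752 RPKM.

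The other 3 leading chromosome 16 members had lower day 42 medians in Pinot noir. VIT_16s0100g01010 had a median of 40.2 RPKM at day 42 against 0.722 before onset, VIT_16s0100g01000 had 23.6 against 0.424 and VIT_16s0100g00910 had 33.1 against 0.138 RPKM. The differences in Pinot noir were 4.04 ± 0.25, 3.72 ± 0.26 and 4.42 ± 0.19 log2 units (SE), and none of these members was called in Cabernet Sauvignon, where the differences were -0.20, 0.06 and 0.04. VIT_16s0100g01000 was above 0 in every library, the only member of which this was true.

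Among the 34 tested chromosome 16 members, VIT_16s0100g01040 alone was not called in Pinot noir, with a difference of 0.88 ± 0.11 log2 units (SE). The smallest called were VIT_16s0100g00920 at 1.21 and VIT_16s0100g00760 at 1.26.

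The 3 leading chromosome 10 members were unsteady between libraries. VIT_10s0042g00880 had 14.0, 9.41 and 14.3 RPKM at day 42 of 2013 in Pinot noir, against 49.4, 23.0 and 27.5 RPKM at day 42 of 2012, and was listed at 0 in every one of the 88 low-level libraries, which include all of 2014. It was listed at 0 in 16 of the other 131. Its difference in Pinot noir, 1.08 ± 0.33 log2 units (SE; limma, adjusted p = 0.0016), therefore averages 2 seasons with reads and 1 at 0, and cannot be told apart from that set. VIT_10s0042g00860 was above 0 in 110 libraries and VIT_10s0042g00850 in 107, often in 1 or 2 of the 3 libraries of a group. In Pinot noir at day 42 VIT_10s0042g00860 had 22.8, 9.04 and 2.57 RPKM in 2012, 3.58 and 13.2 RPKM with 1 library at 0 in 2013, and 21.5, 5.86 and 8.50 RPKM in 2014. Its difference was 1.93 ± 0.59 log2 units (adjusted p = 0.0017), and that of VIT_10s0042g00850, 0.73 ± 0.39, was not called (adjusted p = 0.076). Without replicate 1 of each group neither VIT_10s0042g00860, at 1.02, nor VIT_10s0042g00880, at 0.97, was called.

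The remaining called members of this cluster were VIT_10s0042g00870, at 1.83 ± 0.15 log2 units (SE), and VIT_10s0042g00930, at 1.33 ± 0.16. VIT_10s0042g00900 had a negative difference in Pinot noir, -0.56 ± 0.07, too small to be called. Its highest library was in Pinot noir of day -7 of 2013, with 1.15 RPKM. Highest libraries fell in Pinot noir after day 0 for 44 of the 46 members above 0 anywhere; the other exception was VIT_10s0042g00860, with 39.9 RPKM in a library of Cabernet Sauvignon 2012 day -37.

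**Figure D3:**
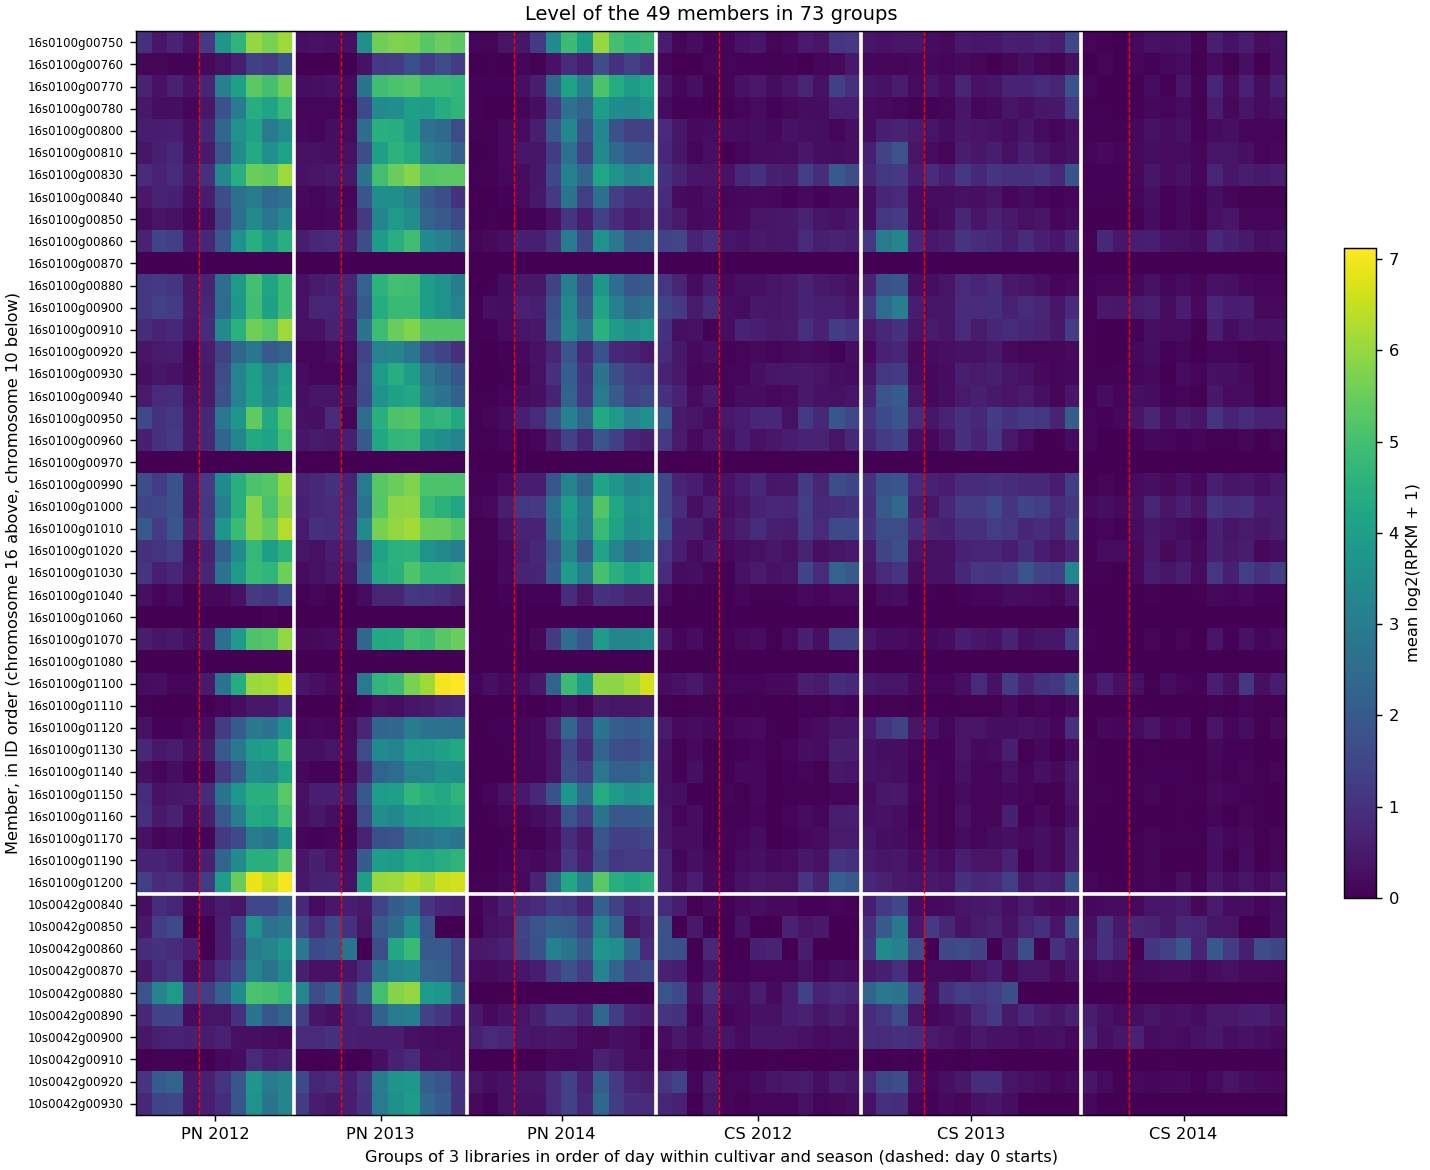
Mean log2(RPKM + 1) of each of the 49 members (down the page in ID order, chromosome 16 above the white line and chromosome 10 below) in the 73 groups (across, Pinot noir, PN, then Cabernet Sauvignon, CS, each by season and day, with a dashed line where day 0 starts). Pinot noir after day 0 holds the high values, and VIT_10s0042g00880 is at 0 in all groups of 2014.

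Which members made up a cluster's sum differed between green and ripe berries. Over the higher-level Pinot noir libraries, VIT_16s0100g01100 gave a median of 7.77% of the chromosome 16 sum in 27 libraries from day 21 on, against 0.964% in 21 libraries before day 0, and VIT_16s0100g01200 gave 11.2% against 4.59%. VIT_16s0100g01000 went the other way, with 4.55% against 7.47%, as did VIT_16s0100g00860, with 1.94% against 6.32%, and VIT_16s0100g00900, with 2.35% against 5.24%. In 23 green Cabernet Sauvignon libraries the medians of VIT_16s0100g00860 and VIT_16s0100g00900 were 12.3% and 8.45%.

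The chromosome 10 cluster held a large share of the combined sum in green berries and a small one later. In Pinot noir its share in the higher-level libraries was 1.21% at the lowest, 7.09% at the median and 16.3% at the highest from day 21 on (n = 27), against 16.8%, 45.0% and 86.9% before day 0 (n = 21). In the low-level libraries, where VIT_10s0042g00880 was listed at 0, it was 1.2%, 6.32% and 9.68% (n = 18) against 41.2%, 60.9% and 78.8% (n = 9). The ranges of the 2 periods did not overlap in either set. In Cabernet Sauvignon the medians were 19.3% from day 21 on against 38.7% before day 0 in the higher-level libraries, and 22.5% against 49.2% in the low-level ones, with overlapping ranges.

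**Figure D4:**
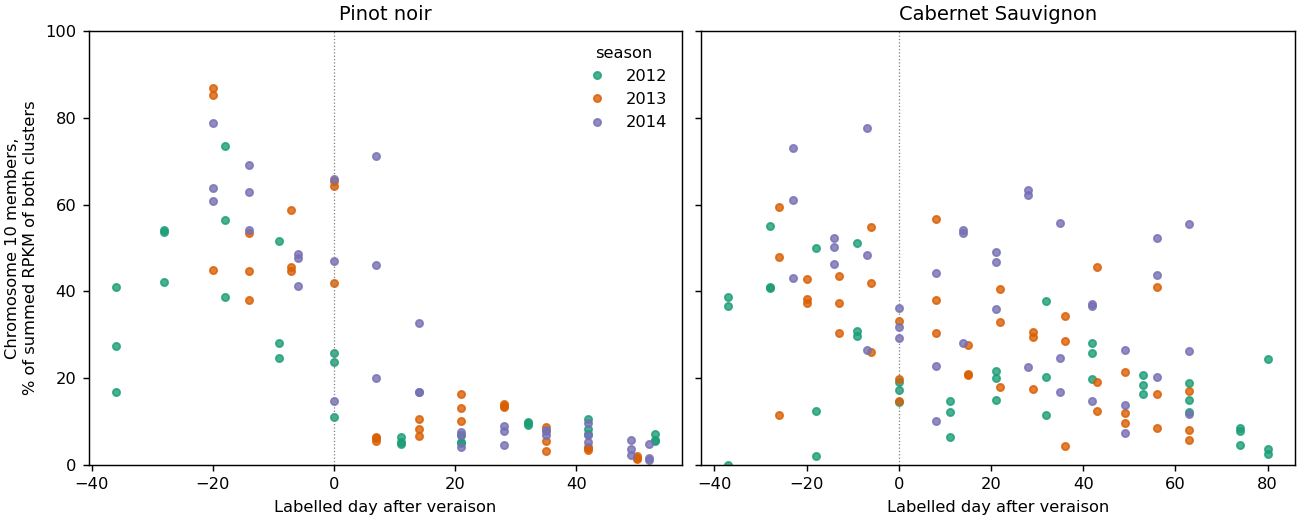
Chromosome 10 members as a percentage of the summed RPKM of both clusters, by labelled day after veraison, 1 point per library, coloured by season, Pinot noir left and Cabernet Sauvignon right. Pinot noir libraries from day 21 on all lie between 1.2% and 16.3%, while Cabernet Sauvignon libraries of the same days reach 63.5%.

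Late in the 2013 season the chromosome 10 sums of Pinot noir fell far more than the chromosome 16 sums. Chromosome 10 sums were 7.57, 13.5 and 15.0 at day 50, against 173, 122 and 161 at day 28. Chromosome 16 sums were 619, 677 and 959 at day 50, against 1064, 783 and 1043 at day 28. The comparison of these days was chosen after the course had been seen. In it, 8 of 10 chromosome 10 members and 13 of 39 chromosome 16 members were lower and 1 chromosome 16 member was higher, where 5.14% of all genes tested were lower and 2.81% higher.

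The 13 chromosome 16 members that fell had IDs from VIT_16s0100g00800 to VIT_16s0100g01020. These IDs are the first and the last member called lower, so the ends were set by the calls and nothing was tested about position. Among the 13, VIT_16s0100g00860 had 3.95, 5.51 and 5.25 RPKM at day 50, against 37.9, 21.4 and 31.6 at day 28, and fell by 2.38 log2 units, and VIT_16s0100g01000 had 14.4, 19.0 and 18.7 RPKM against 70.2, 44.7 and 66.9. The member called higher, VIT_16s0100g01100, had 119.6, 108 and 205 RPKM at day 50, against 42.0, 54.5 and 57.1 at day 28, and rose by 1.43 ± 0.39 log2 units (SE; limma, adjusted p = 0.0016). VIT_16s0100g01200 had 82.0, 90.1 and 128 RPKM against 85.4, 73.3 and 89.0, with overlapping libraries. On chromosome 10, VIT_10s0042g00930 had 1.17, 1.22 and 0.862 RPKM against 17.2, 10.4 and 15.4. VIT_10s0042g00900, which stayed under 0.5 RPKM on both days, was the tested member of that cluster that was not called.

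**Figure D5:**
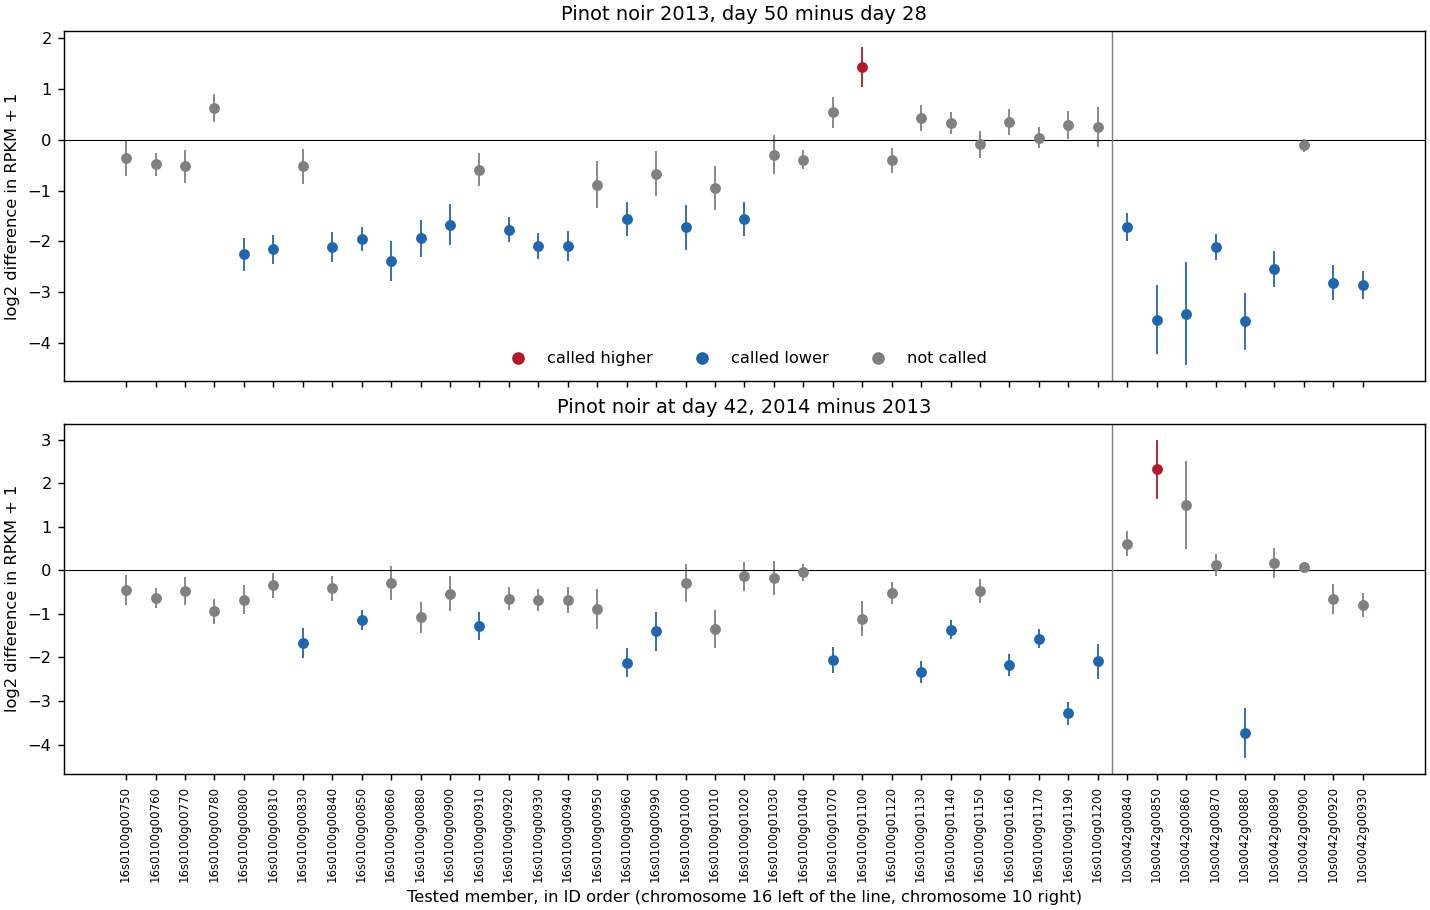
Differences in log2(RPKM + 1) with standard errors from limma for the 43 tested members in ID order, for Pinot noir of 2013 between day 50 and day 28 (upper panel) and for Pinot noir at day 42 between 2014 and 2013 (lower panel), coloured by call. In the upper panel 13 chromosome 16 members and 8 chromosome 10 members were called lower and VIT_16s0100g01100 higher. In the lower panel 13 members of both clusters were called lower and 1 higher.

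Seasons were compared at day 42. Between 2013 and 2012, both among the higher-level libraries of Pinot noir, 0 members were higher and 2 were lower, where 0.173% of genes were higher and 0.775% lower: VIT_10s0042g00850, which was listed at 0 in all 3 libraries of 2013 and had 5.67, 4.85 and 5.59 RPKM in 2012, and VIT_10s0042g00920, which fell by 1.11 log2 units. Of these 2 calls 0 were left without replicate 1 or without replicate 3, and 1 without replicate 2. For 2014 the season cannot be told apart from the low-level set. Pinot noir of 2014 had 23 members lower than in 2012, where 0.336% of genes were higher and 2.51% lower, and 13 lower and 1 higher than in 2013, where 1.67% were lower and 0.121% higher. Without replicate 3 the first of these counts was 13. The mean of 2014 over that of 2012 and 2013 ranged from 0.0626 for VIT_16s0100g01190 to 0.950 for VIT_16s0100g01030 among the 34 tested chromosome 16 members, with a median of 0.437. At day 42, VIT_16s0100g01190 had a mean of 1.34 RPKM in 2014 against 21.4 ± 2.94 in 2012 and 2013 (SD, n = 6). Every library of 2014 lay below every one of 2012 and 2013 for 19 members, where 9.47% of all genes tested did.

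In Cabernet Sauvignon at day 42 the chromosome 16 sums were 7.03, 6.74 and 9.53 in 2014, 17.0, 15.5 and 20.6 in 2013, and 19.0, 2.10 and 5.91 in 2012. The libraries of 2014 all lay below those of 2013, while those of 2012 spread over both. By member, between 2014 and 2013, both low-level at that window, only VIT_16s0100g01030 was called, and it fell by 1.19 log2 units, where 0.397% of genes were lower and 0.961% higher. This call was lost with any 1 replicate left out, with a pseudocount of 5 and with the 2014 windows moved by 1 time point. Between 2013 and 2012 the same gene alone was higher, by 1.41 ± 0.39 log2 units (SE), where 1.11% of genes were higher and 2.7% lower, and this call was lost without replicate 2 or 3 and with a pseudocount of 5. The Cabernet Sauvignon libraries of 2013 at that window were all low-level and those of 2012 were not, so season and library set cannot be told apart there. Between 2014 and 2012 no member was called by limma, where 0.191% of genes were higher and 1.73% lower, and 0 members had an unadjusted p under 0.05.

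Within chromosome 16 the tested members moved closely together in Pinot noir. Over the 33 Pinot noir groups the 561 pairs had Pearson correlations of log2(RPKM + 1) between 0.701 and 0.997 with a median of 0.937, and over the 40 Cabernet Sauvignon groups between -0.175 and 0.981 with a median of 0.613. The 36 chromosome 10 pairs ranged from -0.639 to 0.978 in Pinot noir, median 0.753, and from 0.372 to 0.951 in Cabernet Sauvignon, median 0.623. Groups share seasons, and copies may share reads. The summed levels of the clusters correlated with each other at 0.77 over the Pinot noir groups and 0.59 over the Cabernet Sauvignon groups.

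Of the 21382 other tested genes, those most like the chromosome 16 sum over the 73 groups were VIT_16s0039g01100, one of a run of phenylalanine ammonia-lyase IDs, with r = 0.95, and VIT_06s0004g01010, also with 0.95. Most like the chromosome 10 sum were VIT_11s0016g02070, with 0.88, and VIT_16s0039g01130, of the same ammonia-lyase run, with 0.87. The median over all these genes was -0.16 for chromosome 16 and -0.07 for chromosome 10.

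MYB14 and MYB15, transcription factors known to activate grapevine stilbene synthase promoters, differed in course. MYB14 (VIT_07s0005g03340) had 11.3 RPKM at the lowest, 17.0 at the median and 26.3 at the highest at day 42 in Pinot noir, against 2.54, 6.33 and 7.41 before onset, a rise of 1.49 ± 0.19 log2 units (SE; limma, adjusted p = 5.2e-12). In Cabernet Sauvignon it had 0.306, 0.671 and 1.38 RPKM at day 42, against 1.72, 6.91 and 14.7 before onset, and fell by 1.95 log2 units (adjusted p = 7.0e-18). The cultivars overlapped before onset and did not at day 42. MYB15 (VIT_05s0049g01020) rose in both: it had 93.1, 122 and 211 RPKM at day 42 in Pinot noir, against 3.76, 7.03 and 10.4 before onset, and 16.0, 25.7 and 46.2 RPKM at day 42 in Cabernet Sauvignon, against 1.35, 4.10 and 6.30. The rises were 4.02 ± 0.16 and 2.62 ± 0.16 log2 units (SE).

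Across groups MYB14 correlated with the chromosome 16 sum at 0.87 over the 33 Pinot noir groups and 0.29 over the 40 Cabernet Sauvignon groups, and with the chromosome 10 sum at 0.70 and 0.55. MYB15 correlated with chromosome 16 at 0.90 and 0.24, and with chromosome 10 at 0.58 and -0.17. Among the 21382 other tested genes MYB14 ranked 242 by likeness to the chromosome 16 sum and 26 by likeness to the chromosome 10 sum, and MYB15 ranked 353 and 1095. The dip of Pinot noir 2014 at day 28 was also seen in MYB14, with 5.97, 4.79 and 3.62 RPKM, between 8.18, 13.4 and 13.1 RPKM at day 21 and 13.2, 17.4 and 23.6 RPKM at day 35. In green Cabernet Sauvignon berries high MYB14 did not always go with high clusters. At day -14 of 2014, where all 3 libraries were low-level, MYB14 averaged 6.31 RPKM and the chromosome 16 sums were 5.42, 2.83 and 2.07. At day -13 of 2013, with 1 low-level library, both were high for green berries: MYB14 averaged 11.7 RPKM and the sums were 26.7, 67.1 and 80.3. MYB13 (VIT_05s0049g01010), of the same subgroup, had 0.324, 0.648 and 1.24 RPKM at day 42 in Pinot noir, against 0.507, 0.839 and 1.32 before onset. In Cabernet Sauvignon it had a median of 0 and at most 0.0951 RPKM at day 42, against 0.425, 0.766 and 0.851 before onset, with no overlap. Its difference there was -0.73 ± 0.06 log2 units (SE; limma, adjusted p = 1.2e-21), short of the 1 log2 unit a call needs, and with a pseudocount of 0.1 it was -2.67 and called.

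The upstream enzymes were listed from published use of the IDs, and not every ID of the ammonia-lyase run is known singly. Phenylalanine ammonia-lyase, the first step from phenylalanine, had 28 listed genes, of which 18 were tested. Over ripening 13 were higher and 1 was lower in Pinot noir, where 9.12% of all genes tested were higher and 22.7% lower. In Cabernet Sauvignon 2 were higher and 3 lower, where 7.71% and 23.1% of all genes were. VIT_13s0019g04460 had a median of 91.5 RPKM at day 42 against 3.79 before onset in Pinot noir, and 24.8 against 2.87 RPKM in Cabernet Sauvignon, and rose in both. VIT_08s0040g01710 had 77.8 against 3.20 RPKM in Pinot noir, where it rose by 4.06 ± 0.20 log2 units (SE), and 1.34 against 4.40 RPKM in Cabernet Sauvignon, where it fell by 1.01.

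Cinnamate 4-hydroxylase, the second step, had 3 listed genes, of which 2 were tested. Both tested genes were higher in Pinot noir, and in Cabernet Sauvignon limma called 0, with 1 at an unadjusted p under 0.05. Of all genes tested, 9.12% were higher in Pinot noir and 7.71% in Cabernet Sauvignon. VIT_06s0004g08150 had a median of 131 RPKM at day 42 against 22.9 before onset in Pinot noir, and 42.7 against 35.3 RPKM in Cabernet Sauvignon; VIT_11s0065g00350 had 10.9 against 0.713 and 1.86 against 0.346 RPKM. Of 3 listed 4-coumarate-CoA ligases, all tested, which make the substrate shared by stilbene and chalcone synthase, 2 were higher in Pinot noir, and 1 was higher and 2 lower in Cabernet Sauvignon. Beside the shares of higher genes just given, 22.7% of all genes tested were lower in Pinot noir and 23.1% in Cabernet Sauvignon. VIT_11s0052g01090 had a median of 50.7 against 21.9 RPKM in Pinot noir and 4.24 against 28.5 RPKM in Cabernet Sauvignon, and VIT_16s0050g00390 had 121 against 33.7 and 85.2 against 26.1 RPKM.

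Chalcone synthase, which competes for the same substrates, was higher with ripening in both cultivars, in all 3 listed genes in Pinot noir and in 2 of 3 in Cabernet Sauvignon, again beside 9.12% and 7.71% of all genes. The change differed between cultivars for 0 of 3 in limma, where 6.29% of all genes were called with the larger change in Pinot noir. CHS1 (VIT_14s0068g00930), at 0.68 ± 0.26 log2 units (SE), and CHS2 had unadjusted p under 0.05, 2 of 3, and missed the call by size. At day 42 itself 2 of 3 were higher in Pinot noir, where 6.55% of all genes were. CHS3 (VIT_05s0136g00260) had a median of 1006 RPKM at day 42 against 58.5 before onset in Pinot noir, and 356 against 24.3 RPKM in Cabernet Sauvignon. CHS2 (VIT_14s0068g00920) had 111 against 16.9 and 71.3 against 15.4 RPKM. The difference of the ripening change between cultivars was 0.31 ± 0.36 log2 units for CHS3 and 0.70 ± 0.29 for CHS2 (SE), where it was 6.23 ± 0.32 for VIT_16s0100g01100.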

How the data were processed

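RNA-seq of pericarp, 3 libraries in each of 73 groups, was deposited by the authors as 1 table of RPKM per gene. Per the submitters' processing notes the tools were TopHat2 2.0.6 and Cufflinks 2.0.2; the genome build, and how reads matching several gene copies were counted, are not given in the sources used here. RPKM summed to 807469 to 1192349 per library. The values showed no whole-read steps, with at most 7.61% of ratios of 3142 low genes in a bin of 0.02 log2 units, so read depth could not be recovered and counting intervals are left out. The members and gene lists were chosen with earlier results of these data known.

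From the table, limma 3.58.1 in R 4.3.3 was fitted to log2(RPKM + 1), with 1 mean for each of the 73 groups, for the 21425 genes with at least 1 RPKM in at least 3 libraries. Contrasts averaged the 3 seasons, with Benjamini-Hochberg adjustment over all genes tested, and calls at an adjusted p under 0.05 and 1 log2 unit. Differences on this scale understate the change of low genes. Single-season and day 50 against day 28 comparisons were added after values were seen. Cluster sums are descriptions. In data simulated for the Pinot noir ripening comparison on the 21425 genes, the fit recovered known changes. These were put into 200 genes of higher mean level, so members of low level or often at 0 were not covered. Values in full were given for the 6 chromosome 16 and 3 chromosome 10 members of highest mean, for MYB13, MYB14 and MYB15, and for at most 2 genes per enzyme class with the largest Pinot noir change; other members named were chosen after their values were seen. Alternatives were other pseudocounts, no filter, quantile and median-ratio scaling, a replicate block, leaving out each replicate, 2014 windows 1 time point later, leaving out the 4 libraries with the other cultivar's markers, season means as replicates and, added after seeing the data, fits within each of the 2 library sets.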

Additional observations from a re-analysis of the deposited data

Results flagged for a closer look

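The change over ripening (day 42 minus before onset) differed between Pinot noir and Cabernet Sauvignon by a test of that difference in limma for 40 of the 49 members, where 6.29% of all genes tested had the larger change in Pinot noir. The named members had differences, Pinot noir minus Cabernet Sauvignon, of 6.23 log2 units for VIT_16s0100g01100, 5.29 for VIT_16s0100g01200, 4.86 for VIT_16s0100g00750, 4.37 for VIT_16s0100g00910, 4.24 for VIT_16s0100g01010 and 3.66 for VIT_16s0100g01000. On chromosome 10 they were 2.32 for VIT_10s0042g00860, 1.90 for VIT_10s0042g00880 and 1.62 for VIT_10s0042g00850, each of which was listed at 0 in many libraries. Among the regulators, MYB14 (VIT_07s0005g03340) had 3.44 and MYB15 (VIT_05s0049g01020) had 1.40. Within the higher-level libraries alone, which leaves 1 season with both cultivars, 35 members were called, and within the low-level libraries alone, again 1 season, 35 were.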

How the results depend on the processing

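The call that members are higher at day 42 than before onset in Pinot noir was made for 37 members and for 24 with a pseudocount of 5, with 34 to 41 when each replicate was left out. The difference of this change between cultivars, called for 40 members, was called for 0 with season means as replicates. In Cabernet Sauvignon the ripening count of 0 became 4 with a pseudocount of 0.1 and 2 within the low-level libraries, and 0 to 3 with a replicate left out.

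The step to day 0 in Pinot noir had 1 call, and 0 with a pseudocount of 5, quantile or median-ratio scaling, season means or the low-level libraries alone (0 to 1 with a replicate left out). In Cabernet Sauvignon it had 2 calls, 13 with a pseudocount of 0.1, 9 within the higher-level libraries, and 0 with a pseudocount of 5, quantile scaling, 2014 windows moved by 1 time point, season means or the low-level libraries alone (0 to 3 with a replicate left out). Day 21 against day 0 in Cabernet Sauvignon had 1 call, 8 with a pseudocount of 0.1, and 0 with a pseudocount of 5, no filter, moved 2014 windows, season means or either library set alone (0 to 1 with a replicate left out). Day 42 against day 21 in Pinot noir had 5 calls, 8 with a pseudocount of 0.1, 1 with a pseudocount of 5, 10 within the higher-level libraries and 3 with season means (6 to 7 with a replicate left out); in Cabernet Sauvignon it had 0, and 1 with a pseudocount of 0.1. The last step in Cabernet Sauvignon had 2 calls, 15 with a pseudocount of 0.1, 5 and 1 within the higher-level and low-level libraries, and 0 with a pseudocount of 5, moved 2014 windows or season means (1 to 2 with a replicate left out).

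Before onset 0 members differed between cultivars, 5 with a pseudocount of 0.1 and 1 within the higher-level libraries (0 to 1 with a replicate left out). At day 42, 2013 against 2012 had 2 calls in Pinot noir, and 1 with a pseudocount of 0.1 or within the higher-level libraries (0 to 1 with a replicate left out). For 2014 against 2012 it was 23, 13 and 12 with pseudocounts of 0.1 and 5 (13 to 22 with a replicate left out), and for 2014 against 2013 it was 14, and 8 with a pseudocount of 0.1 (10 to 16). Cabernet Sauvignon of 2013 against 2012 had 1 call, 4 and 0 with pseudocounts of 0.1 and 5 (0 to 1), and of 2014 against 2013 it had 1, and 0 with a pseudocount of 5 or moved 2014 windows (0 with any replicate left out). Day 50 against day 28 of Pinot noir 2013, with 22 calls, had 20 to 23 under all alternatives that could be fitted. The causes were not tested. A replicate block left the counts at 37 and 40 for the ripening change and its cultivar difference and at 39 at day 42, and changed no other count. Same-numbered libraries of compared windows correlated at -0.307 to 0.488, with a median of 0.0188; 11 of 72 correlations were over 0.1, and in 1 of 24 pairs of windows all 3 were. The labels tie nothing to the numbers, which were taken as names only. No named gene reversed. MYB14 in Cabernet Sauvignon had -0.95 with a pseudocount of 5, and the cultivar difference of MYB15 was 0.86 with moved 2014 windows; neither was then called. Read depth is unknown, and single copies may share reads.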
